A study of Mus musculus with 36 samples.

Results

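The genes described are the SoxC genes Sox4, Sox11 and Sox12 and the SoxD genes Sox5, Sox6 and Sox13, taken from the mouse tables as the 6 rows whose Ensembl identifiers carry those symbols, of 51912 gene rows in all. Each was followed by RNA-seq of polyadenylated RNA from HM1 cells, a mouse embryonic stem cell line, during their differentiation towards spinal motor neurons. There were 12 time points (days 0, 0.5, 1, 1.5, 2, 2.5, 3, 3.5, 4, 5, 6 and 7) with 3 replicates each, 36 libraries in all. Library totals ran from 26567321 to 35757989 counts.

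Every group shared the same start. Cells cleared of feeders were plated on day -3 in N2B27 medium with 10 ng/ml bFGF, and on day -1 the medium also held 5 µM of the GSK3 inhibitor CHIR99021, 10 µM of the TGF-β receptor inhibitor SB431542 and 2 µM of the BMP receptor inhibitor DMH1. The labels call the cells of every day neural progenitors, started from neuromesodermal progenitors (bipotent cells of the posterior embryo), and mark day 0 as the control. From day 0 all later groups received 100 nM RA (retinoic acid) and 500 nM SAG (an agonist of the Hedgehog receptor component Smoothened), with the medium changed daily. No group of the later days without RA and SAG was used here, so the time in culture and the response to RA and SAG cannot be told apart. The labels call the replicates biological but do not say that they were separate differentiations, so the spread behind each p-value may be technical. All groups come from 1 cell line. In bulk RNA, fewer cells of a type and less RNA per cell cannot be told apart.

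SoxC and SoxD proteins are transcription factors that bind and bend DNA through the HMG box they share with SRY. SoxC proteins are transcriptional activators with an activation domain at the C-terminal end. In the developing spinal cord Sox4 and Sox11 act after the proneural factors and are needed for the expression of pan-neuronal genes and for the survival of young neurons, while Sox12 is the weaker activator of the group. SoxD proteins have no activation or repression domain of their own. They pair through a coiled coil and change what other factors do on the same DNA: Sox5 and Sox6 enhance Sox9 in cartilage and hold back the SoxE factors in oligodendrocyte precursors, Sox6 silences embryonic globin genes in red cell precursors, and Sox13 has been described as a partner of the Wnt effector Tcf7 in T cells.

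All 6 genes lie on the minus strand of GRCm38 in the GENCODE M21 annotation. Sox4 (ENSMUSG00000076431) spans chr13:28948919-28953713 and Sox11 (ENSMUSG00000063632) chr12:27334264-27342574, and each has 1 transcript of 1 exon. Sox12 (ENSMUSG00000051817), at chr2:152393611-152398063, has 2 annotated transcripts. The SoxD genes are long and spliced: Sox5 (ENSMUSG00000041540) covers chr6:143828425-144781977 with 14 transcripts, Sox6 (ENSMUSG00000051910) chr7:115470872-116038796 with 16, and Sox13 (ENSMUSG00000070643) chr1:133382303-133424377 with 5. Sox4 shares 2616 exonic bases with the lincRNA Gm26735 on the other strand, which was listed at time-point means of 0.51 to 2.17 TPM (a length-corrected share of the library's transcripts). Sox5 shares 1330 with Sox5os1, listed at 0 throughout. The strand setting of the counting is not given in the sources used here, so reads of these pairs could not be separated.

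The 3 SoxC genes were each higher in TPM in all libraries of day 4 than in those of day 0, though by different courses. The bases just before their starts are shown, from RefSeq (GRCm38.p6), up to the start of the annotated gene. Capitals mark the CCAAT box, searched as CCAAT on either strand (ATTGG on the strand shown).
Sox4, chr13:28953714-28953949, minus strand: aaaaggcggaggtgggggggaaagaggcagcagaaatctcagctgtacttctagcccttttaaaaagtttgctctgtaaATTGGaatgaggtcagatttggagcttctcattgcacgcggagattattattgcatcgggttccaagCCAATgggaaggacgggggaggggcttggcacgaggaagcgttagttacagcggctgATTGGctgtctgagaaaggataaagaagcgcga
Sox11, chr12:27342719-27342968, minus strand: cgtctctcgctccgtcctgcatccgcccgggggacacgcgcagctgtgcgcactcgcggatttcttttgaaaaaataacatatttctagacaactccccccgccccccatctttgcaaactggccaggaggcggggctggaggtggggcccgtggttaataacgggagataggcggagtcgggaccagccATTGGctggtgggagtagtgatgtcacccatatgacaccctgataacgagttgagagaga
Sox12, chr2:152398064-152398296, minus strand: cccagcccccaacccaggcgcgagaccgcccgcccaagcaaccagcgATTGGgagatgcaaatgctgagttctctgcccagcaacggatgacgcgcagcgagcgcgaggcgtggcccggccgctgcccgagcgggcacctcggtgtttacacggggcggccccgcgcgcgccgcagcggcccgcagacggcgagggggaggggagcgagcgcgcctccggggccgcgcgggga
Windows of 250 bases before the RefSeq start held the box in 3 of 3 SoxC genes, beside 33.8% of 32817 promoter windows of that length. It stood at -171, -104, -47 and -8 from the start of Sox4 (the last one inside the GENCODE gene and so not shown), at -60 for Sox11 and at -203 for Sox12. These windows differed in base composition: GC content was 50.8% for Sox4, 58% for Sox11 and 74.4% for Sox12, with a median of 52.4% over all windows. None of the 3 held TATAAA (12.4% of all windows) or the Gli motif GACCACCCA (0.225%).

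For the SoxD genes, Sox6 and Sox13 are shown because their levels ran in opposite directions after day 2. Capitals mark the motif ACAAAG, which Sox proteins bind, searched on either strand. 
Sox6, chr7:116038797-116038994, minus strand: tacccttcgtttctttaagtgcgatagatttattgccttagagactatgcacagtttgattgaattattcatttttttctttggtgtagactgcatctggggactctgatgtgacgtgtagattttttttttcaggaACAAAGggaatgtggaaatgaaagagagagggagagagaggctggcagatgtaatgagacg
Sox13, chr1:133424378-133424462, minus strand: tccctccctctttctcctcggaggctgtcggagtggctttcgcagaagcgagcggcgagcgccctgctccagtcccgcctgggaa
The Sox6 window, the one of 6 listed for that gene that lies at the annotated gene start, held ACAAAG at -113, and 16.5% of all windows held it. No match was found for Sox13, whose window was 72.4% GC against 45.2% for Sox6. The nuclear receptor half-site AGGTCA was found in the Sox4 window at -162 (14.0% of all windows), and the E-box CANNTG in the windows of Sox4, Sox11, Sox12 and Sox6 (66.2% of all windows). The only window listed for Sox5 lies inside the annotated gene and is not shown.

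Sox4, an activator of neuronal genes, was the most abundant of the 6 genes from day 2 to day 7 apart from day 3.5, when Sox11 was higher by mean. Its 3 libraries stood at 50.23, 49.69 and 49.31 TPM on day 0 and at 59.24, 54.56 and 59.4 TPM on day 0.5. They reached 118.5, 113.93 and 115.34 TPM on day 2, 194.76, 191.67 and 179.25 TPM on day 4 and 206.23, 203.59 and 201.62 TPM on day 7. The libraries of these 5 days did not overlap, so each lay above the one before it in TPM (day 7 against day 4 had no call in the count test described with that comparison). Between neighbouring time points the rise was not even: Sox4 was lower on day 1.5 (71.1 ± 2.25 TPM, SD, n = 3) than on day 1 (80.4 ± 0.23 TPM) in all libraries. The highest mean fell on day 6 (221 ± 26.8 TPM), where the 3 libraries spread from 195.41 to 248.87 TPM and overlapped those of day 5 (219 ± 1.58 TPM). The highest mean was 4.45 times the lowest in TPM and 3.64 times in CPM (library-size-corrected counts after TMM scaling).

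Sox11, the SoxC gene with the longest transcript, rose at the same times and stopped rising earlier. It measured 39.54, 39.77 and 38.99 TPM on day 0, 100.69, 105.74 and 99.18 TPM on day 2, and 196.85, 177.13 and 179.47 TPM on day 4. On day 7 it stood at 158.38, 160.12 and 161.67 TPM, below every library of day 4. Its 2 highest means, on day 4 (184 ± 10.8 TPM) and day 3.5 (182 ± 6.31 TPM), overlapped. Unlike Sox4, it did not dip on day 1.5, when the ratio of Sox11 to Sox4 was 1.03 ± 0.018 (SD, n = 3) against 0.806 ± 0.029 on day 1. That ratio was 1.06 ± 0.027 on day 3.5, 0.763 ± 0.030 on day 5 and 0.793 ± 0.0068 on day 0.

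Sox12, the weakest activator of the group, moved least. Its libraries measured 25.75, 29.15 and 30.11 TPM on day 0, 40.76, 44.19 and 44.01 TPM on day 2, 50.99, 58.39 and 54.32 TPM on day 4 and 69.8, 68.23 and 69.58 TPM on day 7. The days were apart from each other, but days 5, 6 and 7 overlapped, as did days 1, 2 and 2.5. The highest mean was 2.44 times the lowest in TPM and 1.92 times in CPM. Of the summed SoxC TPM, Sox12 made up 24.1% on day 0 and 16.0% on day 7, while Sox4 went from 42.3% to 47.1% and Sox11 from 33.6% to 37.0%. The summed level rose from 118 ± 1.73 TPM on day 0 to 428 ± 14.8 TPM on day 4 and was 433 ± 1.25 TPM on day 7.

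**Figure D1:**
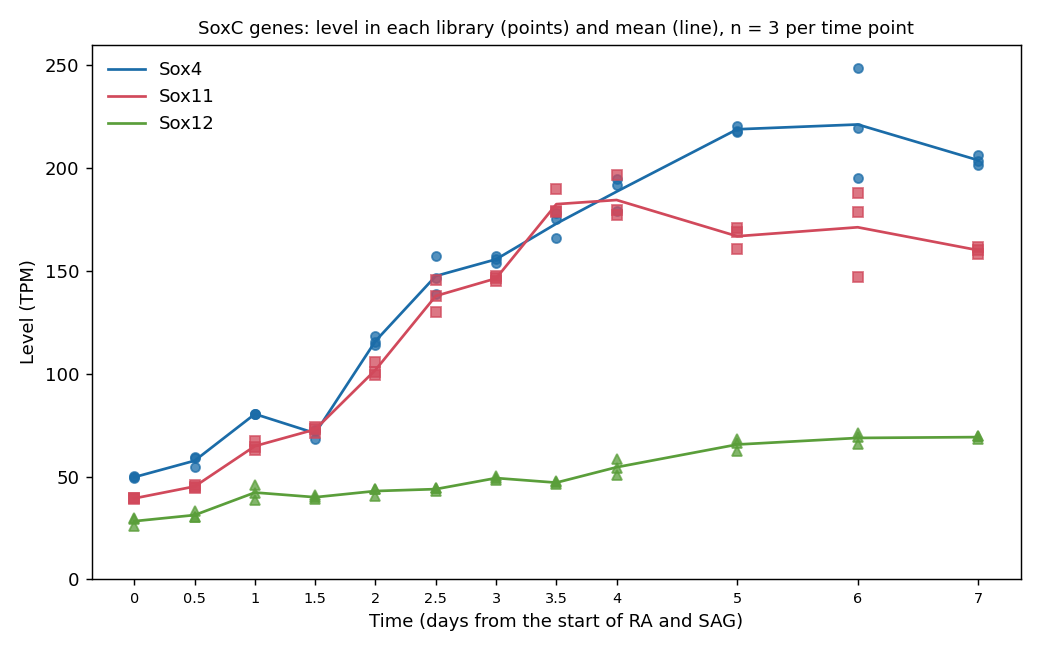
Level of the 3 SoxC genes in TPM (linear axis) against time in days. Points are single libraries, 3 per time point, and lines join the means. Sox4 and Sox11 climb from 49.7 and 39.4 TPM on day 0 to 189 and 184 TPM on day 4 and Sox11 lies lower by day 7 (160 TPM), while Sox12 stays between 28.3 and 69.2 TPM.

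Sox13, the SoxD gene tied to Tcf7, was the only SoxD gene above 2 TPM on day 0 and reached its highest mean earliest of the 3. It measured 25, 28.91 and 25.37 TPM on day 0 and 67.63, 71.24 and 66.77 TPM after 12 hours. Its highest mean was on day 1 (101 ± 7.88 TPM), followed by days 2 (97.5 ± 4.12 TPM) and 3 (91.7 ± 4.18 TPM), and these 3 overlapped. Day 4 was at 80.08, 78.43 and 75.78 TPM, day 5 at 43.5, 38.28 and 39.94 TPM, day 6 at 18.59, 20.52 and 23.2 TPM and day 7 at 16.53, 15.13 and 15.35 TPM. Days 5, 6 and 7 each lay below all libraries of the day before, and days 6 and 7 below all of day 0.

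Sox6, the SoxD gene known from red cell and muscle fibre development, rose up to day 6. Its libraries measured 1.1, 1.28 and 1.56 TPM on day 0, 2.65, 2.03 and 2.74 TPM on day 0.5, and 8.58, 8.38 and 6.22 TPM on day 2. On day 4 they were at 33.03, 25.27 and 26.52 TPM, on day 6 at 42.09, 51.25 and 47.39 TPM and on day 7 at 40.5, 44.36 and 38.41 TPM. Of the 11 steps between neighbouring time points, 8 had all later libraries above all earlier ones, 3 overlapped and 0 went down in every library. The highest mean, on day 6 (46.9 ± 4.60 TPM), was 35.7 times that of day 0 and overlapped day 7.

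Sox5, a partner of Sox6 in cartilage and glia, started near the detection limit. On day 0 it had 5, 4 and 5 counts per library (0.04, 0.1 and 0.19 TPM), and on day 0.5 it had 27, 23 and 30 counts (0.41, 0.35 and 0.73 TPM). It measured 3.16, 3.41 and 3.51 TPM on day 2, 8.62, 7.38 and 5.74 TPM on day 4 and 12.87, 10.95 and 7.86 TPM on day 7, when its libraries overlapped those of day 4. Its highest mean was on day 6 (13.2 ± 1.33 TPM). Sox5 remained below Sox6 in every time-point mean. Relative to TMM-scaled library size, the summed counts of day 0.5 were 5.71 times those of day 0 (95% interval 3.21 to 10.9, exact, covering counting error only). Those of day 7 were 107 times those of day 0 (63.6 to 196).

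Among the SoxD genes the most abundant member changed from Sox13 to Sox6. The summed level of the 3 genes was 27.9 ± 2.17 TPM on day 0, 114 ± 7.19 TPM on day 4, its highest mean, and 67.3 ± 4.94 TPM on day 7. Sox13 made up 94.9% of it on day 0, 89.8% on day 2, 68.8% on day 4, 49.7% on day 5, 25.7% on day 6 and 23.3% on day 7. Sox6 went from 4.73% on day 0 to 24.8% on day 4 and 61.1% on day 7, and Sox5 from 0.395% to 6.35% and 15.6%. In single libraries the ratio of Sox6 to Sox13 was below 1 on day 5 (0.717 to 0.813) and above 2 on day 6 (2.04 to 2.50). Among the SoxC genes, Sox4 and Sox11 stayed above Sox12 in all 36 libraries.

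**Figure D2:**
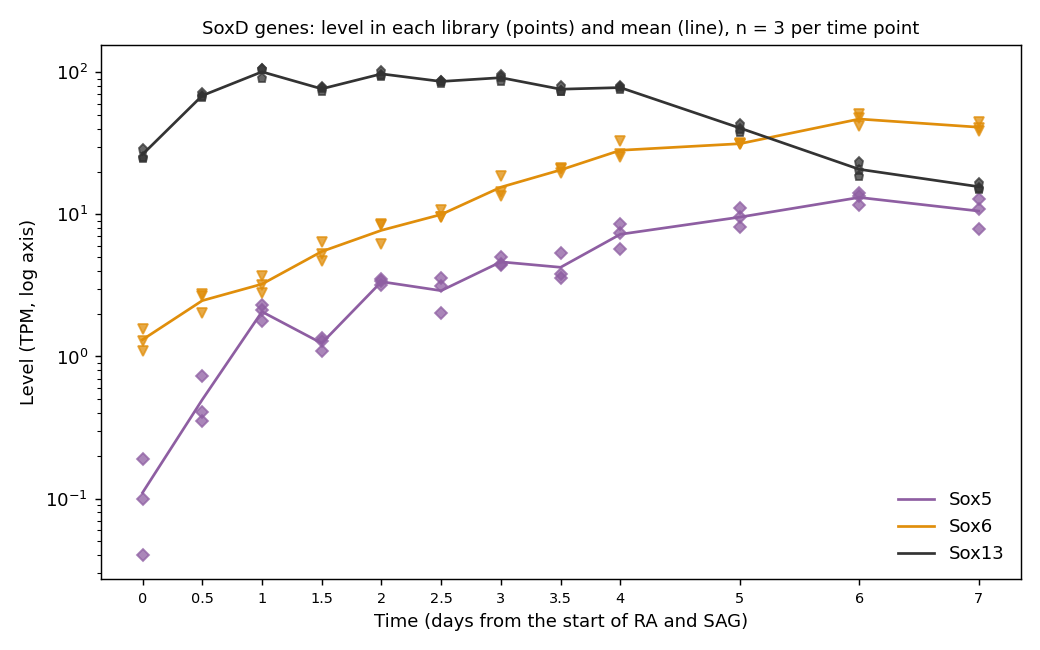
Level of the 3 SoxD genes in TPM (log axis) against time in days, with points for single libraries and lines through the means of 3. Sox13 is highest on day 1 (101 TPM) and falls to 15.7 TPM on day 7, while Sox6 and Sox5 climb from 1.31 and 0.11 TPM on day 0 to 46.9 and 13.2 TPM on day 6, so that Sox6 lies above Sox13 from day 6.

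**Figure D3:**
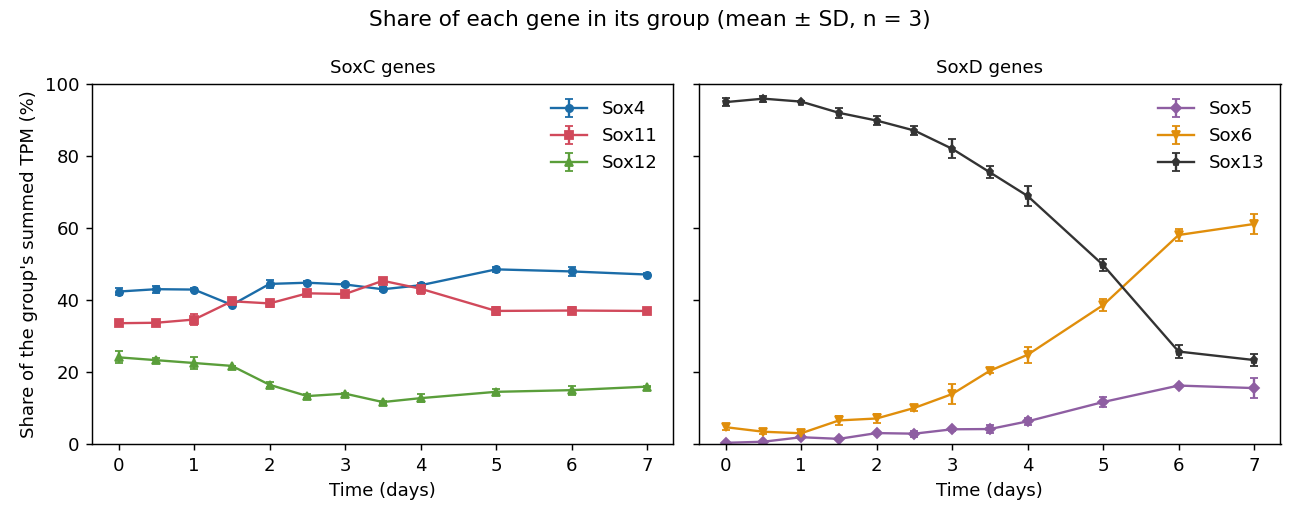
Share of each gene in the summed TPM of its group (percent, mean ± SD of 3 libraries) against time in days, SoxC on the left and SoxD on the right. Sox12 has the smallest SoxC share throughout, while Sox13 drops from 94.9% to 23.3% of SoxD and Sox6 climbs from 4.73% to 61.1%.

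In the first 12 hours of RA and SAG all 6 genes were higher by edgeR's quasi-likelihood test (Benjamini-Hochberg adjusted p under 0.05 over 17990 genes tested), and the SoxD genes moved more than the SoxC genes. Of all genes tested, 27.6% were called higher and 26.7% lower in this comparison. Sox5 rose by a log2 fold change of 2.48 ± 0.28 (SE, adjusted p = 2.84e-09), Sox13 by 1.44 ± 0.06 (adjusted p = 1.31e-20) and Sox6 by 1.00 ± 0.14 (adjusted p = 3.69e-07). Sox4 rose by 0.22 ± 0.05 (adjusted p = 0.000218) and Sox11 by 0.20 ± 0.05 (adjusted p = 0.000679). Sox12 was called at 0.15 ± 0.06 (adjusted p = 0.0243), and the call was lost without replicate 1 of day 0 (0.08, adjusted p = 0.274) or replicate 1 of day 0.5 (0.10, adjusted p = 0.17).

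From day 0.5 to day 2 all 6 were again higher, where 33.9% of genes tested were called higher and 34% lower. Sox5 rose by 2.68 ± 0.14 on the log2 scale and Sox6 by 1.83 ± 0.10. Sox11 rose by 1.06 ± 0.05 (adjusted p = 1.75e-19) and Sox4 by 0.89 ± 0.05 (adjusted p = 1.07e-17). Sox12 and Sox13 rose least, both by 0.35 ± 0.05, with adjusted p of 1.19e-06 and 9.43e-07.

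From day 2 to day 4 the SoxD genes parted: Sox6 (1.78 ± 0.08, adjusted p = 6.47e-20) and Sox5 (1.25 ± 0.09, adjusted p = 9.11e-14) rose while Sox13 fell by 0.50 ± 0.05 (adjusted p = 7.01e-10). Sox11 rose by 0.66 ± 0.05 and Sox4 by 0.51 ± 0.05. In all 5 of the 6 genes were called higher and 1 lower, beside 33.1% and 31.8% of genes tested. Sox12 was called at 0.15 ± 0.05 (adjusted p = 0.0174). That call was lost without replicate 1 of day 2 (0.09, adjusted p = 0.167), without replicate 2 of day 4 (0.09, adjusted p = 0.174) and when only the 6 libraries compared were fitted (0.14, adjusted p = 0.061).

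From day 4 to day 7, 3 of the 6 genes were called higher and 2 lower, beside 33.5% and 32.9% of genes tested. Sox13 fell by 2.31 ± 0.06 (adjusted p = 1.28e-25), the largest change of the 6 in this interval. Sox6 rose by 0.47 ± 0.07 (adjusted p = 2.88e-07) and Sox12 by 0.29 ± 0.05 (adjusted p = 1.55e-05). Sox11 fell by 0.26 ± 0.05 (adjusted p = 1.24e-05). Sox4 had a log2 difference of 0.06 ± 0.05 and no call (adjusted p = 0.266). Sox5 was called at 0.29 ± 0.08 (adjusted p = 0.00351) although its TPM libraries overlapped, and limma on log2(TPM + 0.1) made no call (0.53, adjusted p = 0.0586).

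Over the whole course, day 7 against day 0, 5 genes were higher and Sox13 lower, beside 44.1% and 41.2% of genes tested. The log2 changes were 6.71 ± 0.17 for Sox5, 5.07 ± 0.10 for Sox6, 1.68 ± 0.05 for Sox4, 1.66 ± 0.05 for Sox11, 0.93 ± 0.05 for Sox12 and -1.02 ± 0.06 for Sox13. The largest adjusted p of the 6 was 2.1e-16, for Sox13. Neighbouring comparisons share libraries, as does this one with the first and the fourth. A test for any change over the 12 time points called all 6, as it did 96.1% of the genes tested.

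The scale mattered for the size of these changes. On the log2(TPM + 1) scale the median of all genes tested moved up by 0.13 from day 2 to day 4 and by 0.28 from day 0 to day 7, against 0.01 and 0.05 in the TMM-scaled counts. With limma on that scale 63.5% of the calls of day 7 against day 0 were higher, against 51.7% in the count fit, and 68.6% against 51% from day 2 to day 4. All member calls kept their sign and side of the threshold there, but Sox5 had 0.42, 1.55 and 3.36 for day 0.5 against 0, day 2 against 0.5 and day 7 against 0. Sox6 had 0.58 for day 0.5 against day 0. Without the added 1, the mean TPM of these days differed by 2.17 on the log2 scale for Sox5 and by 0.91 for Sox6. For day 4 against day 2, Sox12 had 0.34 and Sox13 -0.32 with limma on log2(TPM + 1).

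**Figure D4:**
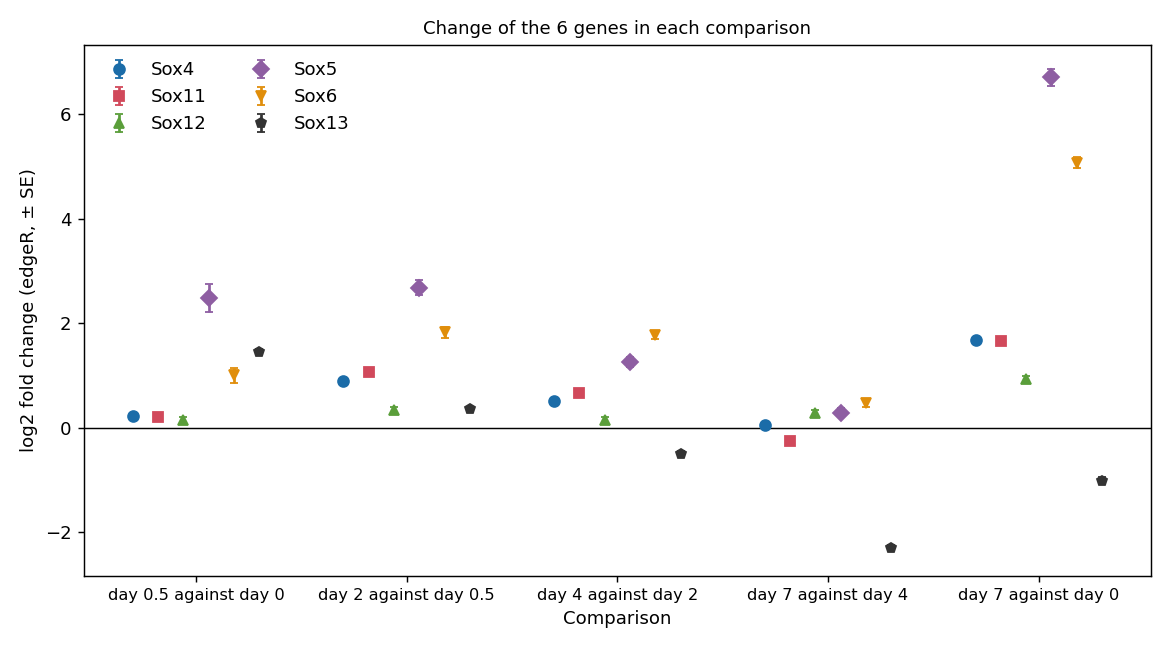
log2 fold change of the 6 genes (edgeR on counts, bars are ± SE, 3 libraries a time point) in the 5 comparisons along the horizontal axis. Sox5 and Sox6 lie above 0 in each, up to 6.71 and 5.07 for day 7 against day 0. Sox13 changes from 1.44 in the first 12 hours to -2.31 from day 4 to day 7, and Sox4 lies at 0.06 in that interval.

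The pathway genes were taken from 4 lists, described by their counts beside the shares of all genes given above, and 9 marker lists are given by their summed TPM and their counts. Factors that act before or with SoxC proteins in neurons (11 tested: proneural bHLH factors, Pou3f factors and Rest, a repressor of neuronal genes) had 9 genes higher and 2 lower after 12 hours. They had 8 and 2 from day 0.5 to day 2, 5 and 5 from day 2 to day 4, and 2 and 8 from day 4 to day 7, and day 7 against day 0 had 9 and 1. The medians of their log2 changes in the first 4 of these were 1.95, 2.33, 0.05 and -0.85, with medians over all genes tested from -0.00241 to 0.0123. The proneural factor Neurog2 rose from 0.417 ± 0.11 to 17.2 ± 2.42 TPM in the first 12 hours, stood at 88.6 ± 8.95 TPM on day 2, and fell to 32.3 ± 1.58 TPM on day 4 and 1.13 ± 0.13 TPM on day 7. Neurod4, a later bHLH factor, rose from 3.31 ± 0.45 to 42.9 ± 1.58 TPM between days 0.5 and 2 and fell from 40.1 ± 3.42 to 11.01 ± 0.80 TPM between days 4 and 7. The POU factor Pou3f2, of a family that acts with Sox proteins on neural enhancers, rose from 0.19 ± 0.092 TPM on day 0 to 57.0 ± 4.33 TPM on day 4 and fell to 32.9 ± 0.76 TPM on day 7. Neurog3, also of this list, came up late. It rose from 0.183 ± 0.15 TPM on day 2 to 72.9 ± 12.8 TPM on day 4 and was still at 57.4 ± 2.27 TPM on day 7. The list had 8 of 11 genes lower between days 4 and 7, when Sox4 had no call and Sox11 had fallen by 0.26.

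Genes described as SoxC targets or downstream genes (8 tested) had 5 genes higher and 2 lower after 12 hours, 6 and 1 from day 0.5 to day 2, 4 and 3 from day 2 to day 4, and 1 and 4 from day 4 to day 7, and day 7 against day 0 had 5 and 3. The medians of their log2 changes in the first 4 of these were 0.33, 0.76, 0.59 and -0.32. The neuronal tubulin Tubb3 fell from 54.2 ± 1.35 to 20.6 ± 1.27 TPM in the first 12 hours, when Sox4 and Sox11 rose. It then rose to 335 ± 33.6 TPM on day 2 and 1101 ± 70.0 TPM on day 4. The microtubule protein Dcx, found in young neurons, rose from 0.237 ± 0.032 TPM on day 0.5 to 15.9 ± 1.54 TPM on day 2 and 176 ± 15.2 TPM on day 4, and Map2 from 10.6 ± 1.78 to 47.3 ± 3.08 and 280 ± 8.19 TPM. Other genes of the list took other courses. Hes5 rose from 4 ± 0.76 to 150 ± 15.6 TPM in the first 12 hours. It stood at 198 ± 24.5 TPM on day 2, 52.2 ± 3.84 TPM on day 4 and 11.9 ± 1.92 TPM on day 7. Fezf2 was at 1.04 ± 0.14 TPM on day 0.5 and at 0 on day 2. Tead2, a Hippo pathway factor reported downstream of SoxC, fell from 316 ± 4.92 TPM on day 4 to 154 ± 4.39 TPM on day 7. Ezh2, the H3K27 methyltransferase, fell from 224 ± 7.15 to 107 ± 0.83 TPM in the same interval. Summed levels of 12 pan-neuronal markers, which include Tubb3, Dcx and Map2, were 175 ± 3.55 TPM on day 0, 104 ± 3.04 TPM on day 1, 812 ± 52.7 TPM on day 2, 3429 ± 136 TPM on day 4 and 3607 ± 109 TPM on day 7. This list had 5 genes higher (Dcx, Map2, Mapt, Elavl3 and Elavl4) and 6 lower after 12 hours, 12 higher from day 0.5 to day 2 and from day 2 to day 4, 6 higher and 3 lower from day 4 to day 7, and 12 higher for day 7 against day 0. The lower sum on day 1 came mainly from Stmn2 (63.2 ± 3.04 TPM on day 0 and 25.0 ± 1.85 TPM on day 1), Tubb3 (27.5 ± 2.48 TPM on day 1) and Nefl (22.0 ± 0.94 and 9.36 ± 0.20 TPM). The SoxC genes summed to 188 TPM on day 1 and 118 TPM on day 0. The 8 motor neuron markers summed to 280 ± 9.90 TPM on day 3, their highest mean, and to 16.0 ± 1.08 TPM on day 7, when the SoxC sum was at 433 TPM. They had 3 genes higher and 2 lower after 12 hours, 8 and 0 from day 0.5 to day 2, 5 and 1 from day 2 to day 4, 0 and 8 from day 4 to day 7, and 5 and 1 for day 7 against day 0. The part of neurons or progenitors in the SoxC levels was not tested.

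Partners and targets of SoxD proteins (16 of 17 tested) moved in both directions: 6 higher and 6 lower after 12 hours, 4 and 8 from day 0.5 to day 2, 7 and 7 from day 2 to day 4, 5 and 7 from day 4 to day 7, and 8 and 8 for day 7 against day 0. Sox9, the SoxE factor that Sox5 and Sox6 assist in cartilage, rose from 4.45 ± 0.25 TPM on day 0.5 to 23.7 ± 2.57 TPM on day 2, 63.3 ± 2.25 TPM on day 4 and 84.1 ± 1.45 TPM on day 7. Sox10, the SoxE factor of the oligodendrocyte lineage, rose from 0.0733 ± 0.040 TPM on day 4 to 28.5 ± 1.11 TPM on day 7. Sox8 rose from 6.28 ± 0.63 to 25.9 ± 1.84 TPM and Pdgfra, a receptor of oligodendrocyte precursors, from 2.92 ± 0.27 to 10.95 ± 1.22 TPM in the same interval. Tcf7, the partner of Sox13, fell from 95.1 ± 2.99 TPM on day 0 to 71.6 ± 1.56 TPM on day 0.5, while Sox13 rose. It fell again to 24.8 ± 1.33 TPM on day 2, as Sox13 rose further. It also fell where Sox13 fell, by 1.54 on the log2 scale from day 2 to day 4. The fall was 0.91 from day 4 to day 7 and 4.5 for day 7 against day 0. Tcf7 was lower in all 5 comparisons, and a link between its level and that of Sox13 was not tested. The cell cycle gene Ccnd1 fell from 160 ± 1.06 TPM on day 0.5 to 68.6 ± 4.90 TPM on day 2, and from 38.4 ± 1.64 to 6.44 ± 0.11 TPM between days 4 and 7.

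Markers of the cell types in which SoxD genes are best known were set beside the rise of Sox5 and Sox6. The 12 glial markers summed to 84.2 ± 4.70 TPM on day 4, 118 ± 5.18 TPM on day 5, 330 ± 37.8 TPM on day 6 and 453 ± 9.51 TPM on day 7, against 42.4 ± 1.85 TPM on day 0. They had 5 genes higher and 1 lower after 12 hours, 5 and 6 from day 0.5 to day 2, 7 and 2 from day 2 to day 4, 10 and 0 from day 4 to day 7, and 11 and 1 for day 7 against day 0. From day 2 to day 4 Sox6 rose from 7.73 to 28.3 TPM. In that interval Nfia and Nfib of this list rose from 3.61 ± 0.31 to 13.2 ± 2.92 TPM and from 0.523 ± 0.13 to 5.65 ± 0.88 TPM. The 2 genes called lower were Olig1 (17.5 ± 2.12 to 12.3 ± 0.18 TPM) and Slc1a3 (11.2 ± 1.13 to 10.8 ± 0.61 TPM). Sox10 was at 0.0733 TPM on day 4. The 9 erythroid markers summed to at most 51.5 ± 17.7 TPM, on day 2, and to 2.41 ± 0.47 TPM on day 7, when 5 of the 9 were at 0. Of the 8 tested, 4 were higher and 0 lower after 12 hours, 6 and 1 from day 0.5 to day 2, 0 and 6 from day 2 to day 4, 0 and 3 from day 4 to day 7, and 0 and 3 for day 7 against day 0. Gata1, left out of the tests by the filter on low counts, was at 0 from day 3 on. From day 2 to day 4 the embryonic globin Hba-x fell from 19.2 ± 6.10 to 0.123 ± 0.049 TPM. Hbb-bh1 fell from 15.8 ± 6.16 to 0.203 ± 0.14 TPM and Hbb-y from 5.29 ± 3.27 to 0.08 ± 0.07 TPM in that interval. A part of Sox6 in these falls was not tested. The 8 cartilage markers summed to 19.7 ± 1.10 TPM on day 0 and 63.7 ± 4.59 TPM on day 7, of which Col2a1, also expressed by neural progenitors, made up 7.30 ± 0.97 and 33.6 ± 2.48 TPM. Col11a1 rose from 6.37 ± 0.32 to 26.97 ± 1.73 TPM and Col9a1 from 0.193 ± 0.074 to 2.30 ± 0.40 TPM over the same days. Of the 7 tested, 2 were higher and 3 lower after 12 hours, 3 and 2 from day 0.5 to day 2, 2 and 2 from day 2 to day 4, 2 and 0 from day 4 to day 7, and 3 and 3 for day 7 against day 0. The cartilage proteoglycan Acan fell from 1.46 ± 0.072 TPM on day 0 to 0.357 ± 0.091 TPM after 12 hours and was at 0.107 ± 0.031 TPM on day 7. The part of glial or cartilage-like cells in the Sox5 and Sox6 levels was not tested. Summed endothelial markers (8 genes) were 8.53 ± 0.36 TPM on day 0, 111 ± 9.41 TPM on day 3 and 53.3 ± 3.21 TPM on day 7, and neural crest markers (8 genes) 14.2 ± 1.25, 73.8 ± 13.4 and 80.9 ± 1.24 TPM. For day 7 against day 0 the endothelial list had 6 genes higher and 1 lower, and the neural crest list 4 and 1 of 6 tested. The 10 markers of neural progenitors, the cell type in the labels, summed to 356 ± 8.50 TPM on day 0 and 6652 ± 206 TPM on day 6. That sum was carried by Fabp7 (3006 ± 121 TPM on day 6) and Vim (3018 ± 94.8 TPM). By counts the list had 8 genes higher and 2 lower after 12 hours, 7 and 2 from day 0.5 to day 2, 3 and 6 from day 2 to day 4, 1 and 7 from day 4 to day 7, and 8 and 2 for day 7 against day 0. Pax6 fell from 19.6 ± 1.34 TPM on day 2 to 3.33 ± 0.32 TPM on day 4, and Nkx6-1 from 154 ± 4.24 TPM on day 4 to 69.3 ± 2.45 TPM on day 7. Caudal epiblast markers (9 genes, all lower on day 7 than on day 0) summed to 1030 ± 56.7 TPM on day 0 and 1.81 ± 0.58 TPM on day 7.

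The other Sox genes (12 of 14 tested) had 8 genes higher and 0 lower after 12 hours, where the 6 SoxC and SoxD genes were all higher too. They had 5 higher and 3 lower from day 0.5 to day 2, 3 and 3 from day 2 to day 4, 3 and 6 from day 4 to day 7, and 8 and 1 for day 7 against day 0. The neural progenitor gene Sox1 rose from 4.16 ± 0.26 to 76.6 ± 3.25 TPM in the first 12 hours and fell to 30.6 ± 0.79 TPM on day 2. Sox3, which also marks neural progenitors, fell from 150 ± 9.78 TPM on day 2 to 80.6 ± 2.57 TPM on day 4 and 12.2 ± 0.23 TPM on day 7.

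Sox3 was also among the 4 genes whose course over the 12 time points was most like that of Sox13, by Pearson correlation of mean log2 CPM over 6672 genes of sufficient level and range. These were Rasl11b (r = 0.985), Sox3 (0.976), Crabp2 (0.975), a retinoic acid binding protein that fell from 1542 TPM on day 1 to 35.8 TPM on day 7, and Baz1a (0.973). For Sox11 they were Lcor (0.995), Nell2, Csnk1e and Chst15, and for Sox4 Irgq (0.992), Gfod1, Klhl28 and Tmem198. For Sox6 they were Tshz2 (0.995), Ephb1, Vhl and Ppm1l, for Sox5 Zfp316 (0.996), Cxxc4, Fam171a2 and Cacna1g, and for Sox12 Nudt9 (0.975), Tmub1, Mok and Lgmn. These are descriptions over 12 means from the same libraries, picked as the highest of many. With log2(TPM + 1) in place of log2 CPM, 0 of the 4 named for Sox5, 1 each for Sox4 and Sox6 and 2 for Sox12 were still among the 4. Among the members themselves, r was 0.968 for Sox4 with Sox11 and 0.969 for Sox4 with Sox6, and from -0.378 to -0.107 for Sox13 with the other 5.

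The deposited counts and TPM together give a relative measure of the transcript length behind each TPM value. It shows whether the mix of transcripts was estimated as constant. Being scaled to other genes, this length can exceed the annotated one (4795 bases for Sox4 and 8311 for Sox11). For Sox4, Sox11 and Sox12 this length was the same in all libraries: 4828 to 4830, 8442 to 8445 and 4476 to 4478 bases. Counts and TPM of these 3 genes therefore carry the same course apart from library scaling. For Sox13 it lay between 2607 and 2953 bases. For Sox6 it was 3415 ± 389 bases (SD, n = 3) on day 0 and 5000 ± 171 bases on day 5, with no overlap between these days. The highest mean level of Sox6 was 35.7 times the lowest in TPM against 37.8 times in CPM. These scales also differ in library scaling. For Sox4, of constant length, the folds were 4.45 in TPM (highest on day 6) and 3.64 in CPM (highest on day 5). The effects of length and library scaling on the Sox6 folds were not separated. For Sox5, taken only where TPM was at least 1, it ranged from 2229 to 4387 bases in single libraries, with SDs within a day of 204 to 845 bases. Lengths were scaled to 471 genes with a single transcript, and they follow RSEM's assignment of reads to transcripts, which is uncertain at the low counts of Sox5 and early Sox6.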

How the data were processed

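RNA was polyA-selected and read out as gene-level tables. The authors deposited RSEM expected counts and TPM for 51912 Ensembl gene IDs, per the file headers and the submitters' processing notes (bcl2fastq 2.20.0, RSEM, build GRCm38). No aligner or strand setting is named there. Library totals were 26567321 to 35757989 expected counts, and 6.87% of all table values were not whole. Symbols came from the gene name table (51633 IDs matched).

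Expected counts were rounded and fitted over all 36 libraries with edgeR 4.0.16 (quasi-likelihood, TMM, filterByExpr, 17990 genes tested) in R 4.3.3, with Benjamini-Hochberg adjustment over all genes tested. Standard errors were taken from each change and its F statistic. Levels are TPM, computed by the authors and deposited as such, with the same sum in each library. The fit was tested on simulated data. Alternatives used limma 3.58.1 on log2(TPM + 1) and log2(TPM + 0.1), DESeq2 1.42.0, other scaling and filters, and leaving out libraries. Replicates differed beyond counting noise in every group.

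The members and the gene lists were chosen with earlier results of these data known. Of each of the 4 pathway lists, counts are given for every comparison, with values for some of its 4 called genes of largest change and at least 1 TPM in the higher group. Marker lists are given as summed TPM with counts (endothelial, neural crest and caudal epiblast for day 7 against day 0 only). The marker genes named, and further intervals for Tcf7 and Pou3f2, were chosen after their values were seen. Genes of like course had at least 10 CPM at their highest and a range of at least 1 on the log2 scale.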

Additional observations from a re-analysis of the deposited data

How the results depend on the processing

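The 5 comparisons were refitted with median-of-ratios scaling, without the filter on low counts, with only the libraries compared, with limma on log2(TPM + 1) and log2(TPM + 0.1), with DESeq2 and without each library in turn. No member changed direction, and 6 results for single genes fell short of the threshold, all given above for Sox12 and Sox5. The number of members and list genes called stayed within 1.5 times under each. No pairing of the libraries by replicate number was seen over all genes tested. Deviations of same-numbered libraries correlated from -0.0661 to 0.0769 over 198 pairs, and 0 of them were over 0.1. A pairing limited to some genes could be missed by this measure. With a replicate block, 6, 6, 6, 5 and 6 members were called in the 5 comparisons in the order given, as without it, and the calls over all genes were 9754, 12174, 11640, 11892 and 15320.

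The day of the highest mean level was less firm. In CPM it was day 5 for Sox4, 3.5 for Sox11 and 5 for Sox12. Leaving out a replicate number moved it between days 5 and 6 for Sox4 (day 5 without replicate 3), 4 and 6 for Sox11 (day 6 without replicate 1), 6 and 7 for Sox12 (day 6 without replicate 1) and 1 and 2 for Sox13 (day 2 without replicate 1). Shares of counts, which favour long transcripts, were 34.3% on day 0 and 37.2% on day 7 for Sox4, 47.6% and 51.1% for Sox11, and 18.1% and 11.7% for Sox12. On day 7 they were 12.7% for Sox5, 70.7% for Sox6 (5.87% on day 0) and 16.6% for Sox13. Of the 4 genes of most like course, 1 to 3 for Sox12 and 1 to 3 for Sox6 were among the 4 without a replicate number. With log2(TPM + 1), 1 was for Sox4, 2 for Sox12, 0 for Sox5 and 1 for Sox6. Depth limits Sox5 on day 0, where no library had more than 5 counts.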

Other observations

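On days 1.5, 2.5 and 3.5 the mean TPM of Sox5 and Sox13 was each time below that of both neighbouring whole days. Sox13 measured 101, 76.5, 97.5, 86.3, 91.7, 76.1 and 78.1 TPM from day 1 to day 4, and Sox5 measured 2.07, 1.24, 3.36, 2.91, 4.63, 4.24 and 7.25 TPM. All libraries lay below those of both neighbours at 1 of the 3 time points for each gene. Of 17990 genes tested, 13.8% were below both neighbours at all 3 in TPM and 7.88% above both, and in TMM-scaled CPM the shares were 10.9% and 12.2%. In CPM Sox5 was below at all 3 and Sox13 at 2 of 3, while Sox6 and Sox11 were below at 0 on either scale. This pattern was looked for after the values had been seen, and its source was not tested.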
